A study of Mus musculus with 6 samples.

Results

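The 9 genes followed here were grouped as genes of later stages of T cell life than the cells sampled. They are the coreceptor genes Cd4, Cd8a and Cd8b1 and the egress genes Klf2 and S1pr1. Ms4a4b and Samhd1 were grouped as mature T cell genes, and Foxp3 and Ctla4 as regulatory T cell genes. Grouping does not make a gene specific to those stages: Ctla4 had 580 to 3484 counts in every library here. All 9 were picked by name from the 24015 gene symbols in the deposited counts. Their levels in these libraries were already known, so those levels are given as a description. Counts of how many of the 9 an all-gene test called are printed once, beside the share of all genes called, and nothing is read from them. All 9 passed the filter on low counts, as did 12939 symbols in all.

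RNA was sequenced from mouse DN3 thymocytes, which are immature T cells sorted here without surface CD4 or CD8, with low CD44 and high CD25, from which other blood lineages had been removed. The 6 libraries comprised 2 from p45-deficient mice (p45-/-), which lack the long isoforms of the HMG-box transcription factor Tcf1, 2 from Tcf1-deficient mice (Lck-cre+ Tcf1 fl/fl), in which a Cre driven by the T-lineage Lck promoter is described as removing all Tcf1 proteins, and 2 from wild type control mice. The labels give no ages, and nothing in them tells whether a genotype's 2 libraries are from different mice. Every p-value therefore rests on the spread among these libraries, part or all of which could be technical. The study asked which Tcf1 isoforms T cell development requires.

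CD4 and CD8 are the coreceptors that bind MHC class II and class I beside the T cell receptor, and thymocytes carry neither at the DN3 stage and both at the double-positive stage. Thymocytes that have passed selection switch on the transcription factor KLF2, which drives S1pr1, the sphingosine-1-phosphate receptor that lets them leave the thymus. FOXP3 is the defining transcription factor of regulatory T cells, and CTLA-4, which competes with CD28 for its ligands, is abundant in them. Ms4a4b encodes a tetraspan membrane protein of mature T cells, and Samhd1 a hydrolase that lowers the pool of deoxynucleotides.

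The stretch of 250 bases upstream of the RefSeq transcription start (build GRCm38.p6) was matched for 6 of the 9 genes, Cd8a, Klf2, Foxp3, Ctla4, Ms4a4b and Samhd1. Foxp3 had 2 entries, of which the most upstream start was used. The counts themselves were made on mm9, so these positions are not those of the counting. Of these stretches 5 are printed 5′ to 3′ on the strand of the gene, because 4 of them belong to genes at their highest in the same library and Cd8a is shown beside them as a gene that was not. Capitals mark the KLF core CACCC and the RUNX core TGTGGT on either strand.
Klf2, chr8:72318812-72319061, + strand: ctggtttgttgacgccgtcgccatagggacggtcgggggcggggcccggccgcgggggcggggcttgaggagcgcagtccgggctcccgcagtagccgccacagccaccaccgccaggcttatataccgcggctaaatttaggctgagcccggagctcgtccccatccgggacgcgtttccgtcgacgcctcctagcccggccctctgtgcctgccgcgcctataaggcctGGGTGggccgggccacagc
Foxp3, chrX:7579426-7579675, + strand: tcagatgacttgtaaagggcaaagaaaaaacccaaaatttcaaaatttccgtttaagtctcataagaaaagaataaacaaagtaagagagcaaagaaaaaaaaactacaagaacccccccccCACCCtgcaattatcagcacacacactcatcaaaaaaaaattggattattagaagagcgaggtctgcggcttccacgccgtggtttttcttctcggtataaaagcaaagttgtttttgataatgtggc
Ms4a4b, chr19:11443308-11443557, + strand: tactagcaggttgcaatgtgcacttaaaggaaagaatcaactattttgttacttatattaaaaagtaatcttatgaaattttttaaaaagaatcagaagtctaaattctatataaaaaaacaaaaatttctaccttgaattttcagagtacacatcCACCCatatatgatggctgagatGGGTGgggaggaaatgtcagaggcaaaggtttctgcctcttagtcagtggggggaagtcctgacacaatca
Samhd1, chr2:157135097-157135346, - strand: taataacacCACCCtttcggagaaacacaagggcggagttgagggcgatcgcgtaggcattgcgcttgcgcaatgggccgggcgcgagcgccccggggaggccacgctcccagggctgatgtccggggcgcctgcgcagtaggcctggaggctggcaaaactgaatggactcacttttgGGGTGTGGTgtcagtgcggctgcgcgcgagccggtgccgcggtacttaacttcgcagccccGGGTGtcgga
Cd8a, chr6:71373177-71373426, + strand: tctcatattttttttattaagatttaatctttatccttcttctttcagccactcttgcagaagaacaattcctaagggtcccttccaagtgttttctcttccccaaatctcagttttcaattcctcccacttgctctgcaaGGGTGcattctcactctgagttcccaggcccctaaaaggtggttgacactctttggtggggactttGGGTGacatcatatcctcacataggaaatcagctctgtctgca

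The KLF core was found in 1 place upstream of Klf2, 1 upstream of Foxp3, 2 upstream of Ms4a4b, 3 upstream of Samhd1 and 2 upstream of Cd8a, and in none upstream of Ctla4. Of 32851 RefSeq upstream stretches of the same length, 52% held it. The RUNX core occurred once, upstream of Samhd1, where it shares bases with a KLF core, and 14% of all stretches held it. The core bound by TCF and LEF factors, CTTTGA on either strand, was in none of the 6, against 13.8% of all stretches. These matches describe letters within the window and no more.

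Library totals ran from 19640524 to 28107031 counts, and 3 reads of a gene in 1 library equal 0.107 to 0.153 CPM. CPM are counts relative to library sizes, which for all levels given here were scaled by TMM. Tcf7, the gene of Tcf1, was at 2340 and 2414 CPM in p45-deficient, 979 and 976 CPM in Tcf1-deficient and 2088 and 1810 CPM in control libraries. The first number of each pair is replicate 1 throughout. Counts per gene do not separate the isoforms, so this level checks only the Tcf1-deficient label. Both Tcf1-deficient libraries were below all others, but the difference from control was not called (log2 fold change −1.0, SE 0.11, edgeR adjusted p = 0.0762), while that from p45-deficient cells was (−1.28, SE 0.11, edgeR adjusted p = 0.0031).

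One library stood apart. Log2 levels of replicate 1 less replicate 2 had an SD over genes of 0.49 in p45-deficient, 0.787 in Tcf1-deficient and 0.51 in control mice, and Tcf1-deficient replicate 1 was at least 2-fold above every other library for 3.49% of the genes tested. The 10 genes listed as DN3 markers, not all of them specific to that stage, summed to 5009 CPM in Tcf1-deficient replicate 1. In the other 5 libraries they summed to between 6752 and 7654 CPM, with each of the 10 above 1 CPM in every library. Il2ra, Ptcra, Dntt, Rag1 and Rag2 were lowest in Tcf1-deficient replicate 1, but Notch3, Cd3e, Cd3g, Hes1 and Dtx1 were not. Counts of Rn45s, the ribosomal RNA precursor, were 2.52% of the total in Tcf1-deficient replicate 1 and 0.482% in control replicate 1, which was the lowest library for Klf2, S1pr1, Ms4a4b, Ctla4 and Samhd1; the other 4 libraries held 1.22% to 1.505%. The part of this share in the levels was not tested.

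**Figure D1:**
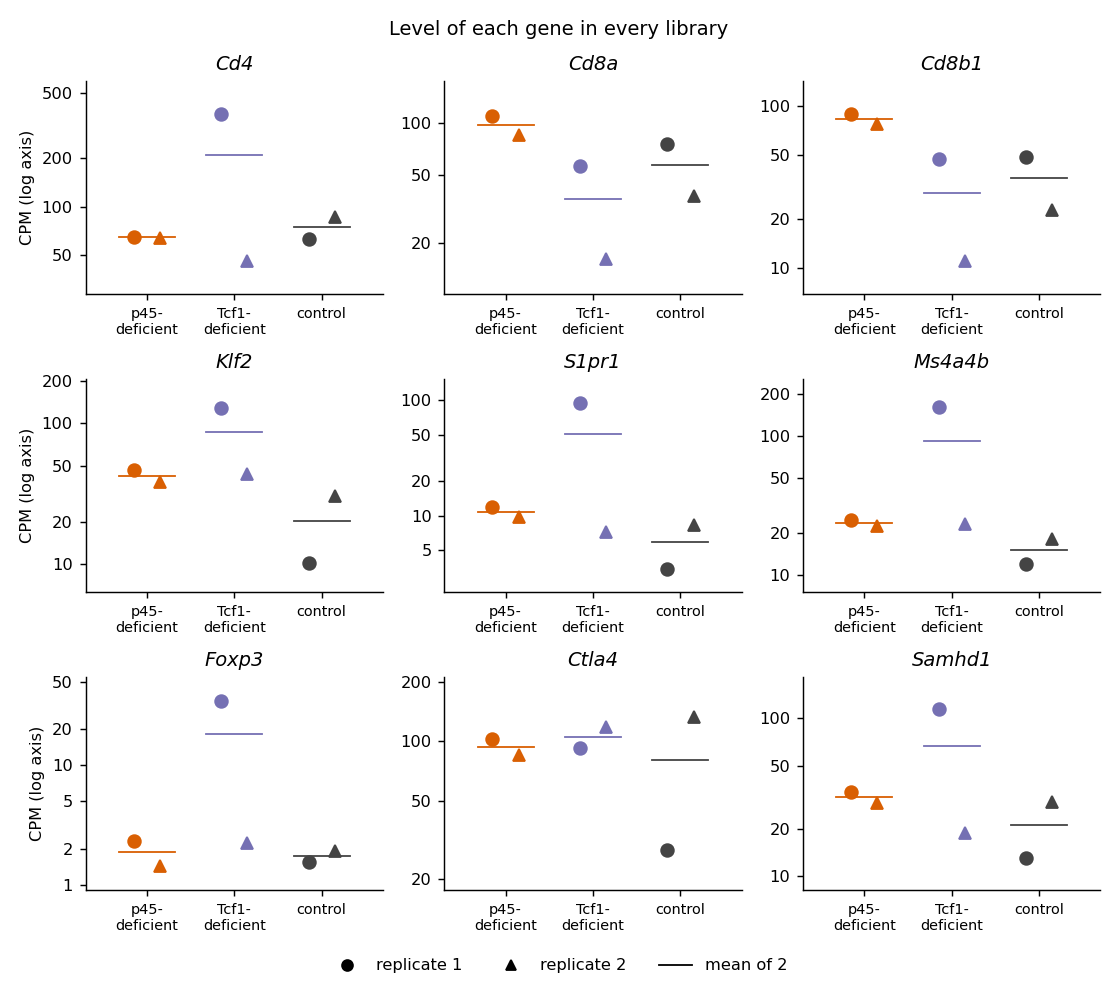
Level of each of the 9 genes in CPM (log axis) in the 2 libraries of each group; circles are replicate 1, triangles replicate 2, and lines the mean of both. Tcf1-deficient replicate 1 is the highest point for Cd4, Klf2, S1pr1, Ms4a4b, Foxp3 and Samhd1, but not for Cd8a, Cd8b1 or Ctla4.

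Cd4 transcript was at 64.6 and 64.4 CPM in p45-deficient, 372 and 46.1 CPM in Tcf1-deficient and 63.1 and 86.4 CPM in control libraries. The other 5 libraries lay within a 1.88-fold range, and Tcf1-deficient replicate 1 lay 4.30-fold above the highest of them. In reads, that library held 8461 counts of Cd4 and replicate 2 of the same genotype 1107. With all 6 libraries the fitted log2 fold change of Tcf1-deficient against control cells was 1.48 (SE 0.95), and without Tcf1-deficient replicate 1 it was −0.70. In p45-deficient against control cells the log2 fold change was −0.21 (SE 0.93), and the libraries of these groups overlapped. That SE rests on an estimate of the spread shared by all genotypes. The gap between the Tcf1-deficient libraries therefore entered it, while the p45-deficient and control libraries ran only from 63.1 to 86.4 CPM. The SEs of every gene below share this limit. In bulk samples, fewer cells of a type and less RNA per cell cannot be told apart, for Cd4 as for every gene below.

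Both chains of CD8 followed another order. Cd8a, the chain that can pair with itself, was at 110.3 and 85.4 CPM in p45-deficient, 56.0 and 16.1 CPM in Tcf1-deficient and 75.9 and 37.7 CPM in control libraries. Cd8b1, which reaches the surface only paired with CD8 alpha, was at 89.7 and 77.5 CPM, 47.5 and 11.0 CPM, and 48.7 and 22.9 CPM in the same order of groups. For both genes the p45-deficient libraries were the top pair of the 6 and Tcf1-deficient replicate 2 was the lowest, while the Tcf1-deficient and control libraries overlapped.

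The means were 97.9 ± 17.6 CPM in p45-deficient, 36.0 ± 28.2 CPM in Tcf1-deficient and 56.8 ± 26.9 CPM in control cells for Cd8a (SD, n = 2 each). The mean of Cd8b1 was 83.6 ± 8.61 CPM in p45-deficient, 29.2 ± 25.8 CPM in Tcf1-deficient and 35.8 ± 18.2 CPM in control cells (SD, n = 2 each). In p45-deficient against control cells the fitted log2 fold change was 0.79 (SE 0.66) for Cd8a and 1.23 (SE 0.75) for Cd8b1. In Tcf1-deficient against p45-deficient cells it was −1.44 (SE 0.67) and −1.52 (SE 0.76), and without Tcf1-deficient replicate 1 it was −2.55 and −2.87. These were the only 2 of the 9 genes whose Tcf1-deficient libraries both lay below both p45-deficient libraries, as did 33.3% of all genes tested, and none of the 9 had both above, as did 27.7% of all genes.

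The reads of the 2 CD8 chains kept a similar proportion while their levels moved. The ratio of Cd8a to Cd8b1 counts was 1.23 and 1.10 in p45-deficient, 1.18 and 1.46 in Tcf1-deficient and 1.56 and 1.65 in control libraries, so it was higher in both controls than in any mutant library. Cd4 and Cd8a did not keep one: the ratio of Cd4 to Cd8a counts was 0.586 and 0.754 in p45-deficient, 6.64 and 2.87 in Tcf1-deficient and 0.832 and 2.29 in control libraries. Gene lengths drop out of these comparisons, since each ratio is compared only between libraries.

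Of the 2 egress genes, Klf2 was above both controls in every mutant library. Its level was 46.4 and 38.0 CPM in p45-deficient, 128.5 and 43.5 CPM in Tcf1-deficient and 10.1 and 30.5 CPM in control libraries. The nearest pair across genotypes was 38.0 CPM in p45-deficient replicate 2 and 30.5 CPM in control replicate 2. The controls themselves differed 3.01-fold. The log2 fold change was 1.05 (SE 0.72) in p45-deficient and 2.08 (SE 0.74) in Tcf1-deficient cells, both against control. For Tcf1-deficient against control cells it was 1.09 without Tcf1-deficient replicate 1, and 3.08 without control replicate 2.

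S1pr1 was at 11.9 and 9.81 CPM in p45-deficient, 94.7 and 7.28 CPM in Tcf1-deficient and 3.48 and 8.28 CPM in control libraries. Tcf1-deficient replicate 1 was 7.98-fold above the next library, and replicate 2 of that genotype was below control replicate 2. The log2 fold change in Tcf1-deficient against control cells was 3.10 (SE 1.26), and 0.30 without Tcf1-deficient replicate 1. S1pr1 reads stood at 0.256 and 0.258 per Klf2 read in p45-deficient, 0.737 and 0.167 in Tcf1-deficient and 0.344 and 0.272 in control libraries, highest in Tcf1-deficient replicate 1.

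Ms4a4b was at 24.99 and 22.6 CPM in p45-deficient, 161.6 and 23.3 CPM in Tcf1-deficient and 12.1 and 18.3 CPM in control libraries. As with Klf2, all 4 mutant libraries were above both controls. The log2 fold change of Tcf1-deficient against control cells was 2.60 (SE 0.94), and 0.62 without Tcf1-deficient replicate 1. Without Tcf1-deficient replicate 1 the remaining Tcf1-deficient library was close to p45-deficient cells, with a log2 fold change of 0.03 between these genotypes. Samhd1 was at 34.3 and 29.0 CPM in p45-deficient, 113.4 and 18.7 CPM in Tcf1-deficient and 13.1 and 29.4 CPM in control libraries. Its Tcf1-deficient libraries lay on either side of all the others but control replicate 1, and the log2 fold change against control was 1.63 (SE 0.91) with all libraries and −0.19 without Tcf1-deficient replicate 1.

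Foxp3 had the fewest reads and the widest gap. It held 63 and 30 counts in p45-deficient, 781 and 54 in Tcf1-deficient and 32 and 50 in control libraries. The exact Poisson 95% interval, which covers counting error only, was 727.2 to 837.7 counts in Tcf1-deficient replicate 1, and 40.6 to 70.5 in replicate 2. As levels, these were 2.32 and 1.44 CPM in p45-deficient, 34.3 and 2.25 CPM in Tcf1-deficient and 1.55 and 1.91 CPM in control libraries. Outside Tcf1-deficient replicate 1 the range was 1.61-fold, and that library was 14.8-fold above the highest other one. The log2 fold change of Tcf1-deficient against control cells was 3.39 (SE 1.25), and 0.38 without Tcf1-deficient replicate 1.

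Ctla4 did not share this pattern. It was at 103.3 and 84.9 CPM in p45-deficient, 92.2 and 117.9 CPM in Tcf1-deficient and 28.04 and 133.0 CPM in control libraries. The 2 controls were the lowest and the highest of the 6, a 4.74-fold difference within one genotype that holds every mutant value between its ends. The log2 fold change in p45-deficient against control cells was 0.22 (SE 0.72) with all libraries, −0.55 without control replicate 1 and 1.69 without control replicate 2. Ctla4 reads numbered 44.6 and 59.1 per Foxp3 read in p45-deficient, 2.69 and 52.5 in Tcf1-deficient and 18.1 and 69.7 in control libraries.

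Tcf1-deficient replicate 1 was at least 2-fold above replicate 2 for 8 of the 9 genes, all but Ctla4, against 9.60% of all genes tested, and the reverse held for none of the 9 and 4.07% of all genes. It was the highest of the 6 libraries for 6 of the 9 genes and at least 2-fold above each other library for the same 6 genes, against 23.3% and 3.49% of all genes. Tcf1-deficient replicate 2 was the lowest library for Cd4, Cd8a and Cd8b1, a place it took for 12.9% of all genes, and at least 2-fold below each other library for Cd8a and Cd8b1, as for 1.31% of all genes. Control replicate 2 was at least 2-fold above control replicate 1 for Klf2, S1pr1, Ctla4 and Samhd1, and control replicate 1 at least 2-fold above control replicate 2 for Cd8a and Cd8b1, each direction holding 3.39% of all genes. The p45-deficient libraries differed 1.61-fold at most, for Foxp3, and so by less than 2-fold for all 9, where 4.47% of genes were 2-fold higher in replicate 1 and 3.36% in replicate 2. The genes were picked with these values in view, so nothing is read from the counts.

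**Figure D2:**
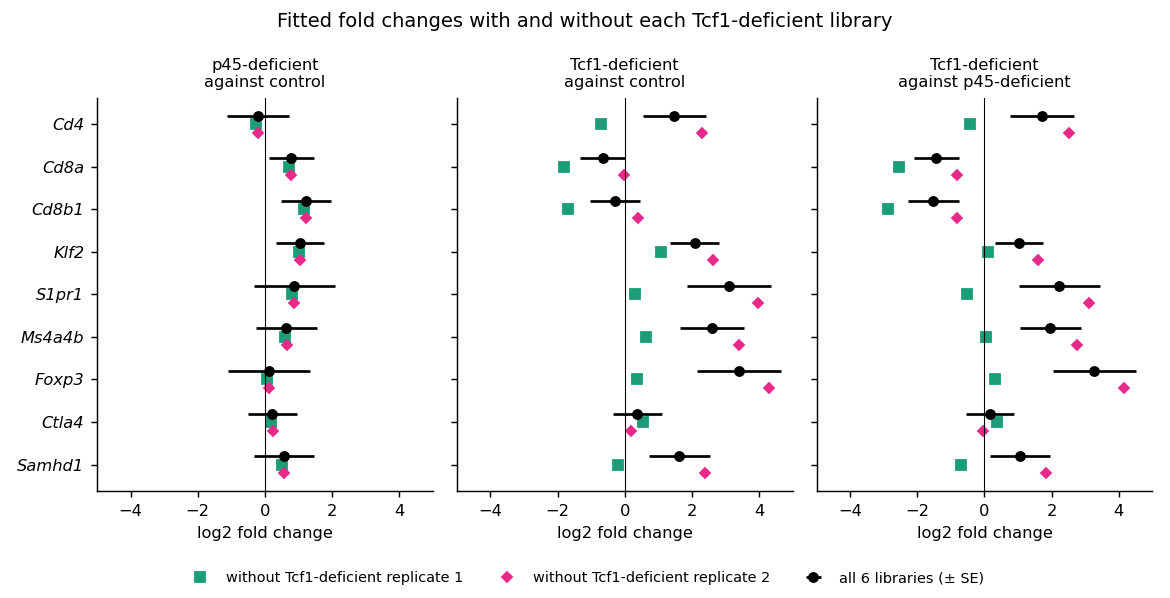
Fitted log2 fold changes of the 9 genes in the 3 comparisons, with all 6 libraries (black, bars are SE) and with either Tcf1-deficient library left out. Leaving out Tcf1-deficient replicate 1 takes S1pr1 in Tcf1-deficient against control cells to 0.30, where all libraries give 3.10, and turns Cd4 and Samhd1 below 0.

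Between genotypes, both p45-deficient libraries lay above both controls for 5 of the 9 genes, Cd8a, Cd8b1, Klf2, S1pr1 and Ms4a4b, and for 37.9% of all genes tested; both lay below for none of the 9, and for 31.3% of all genes. Both Tcf1-deficient libraries lay above both controls for 3 of the 9, Klf2, Foxp3 and Ms4a4b, and for 16.4% of all genes, and below for none of the 9 and 18.0% of all genes. For Foxp3 the lower of these 2 libraries, at 2.25 CPM, cleared the higher control, at 1.91 CPM, by a margin within the Poisson intervals of both. These comparisons share their control libraries. By edgeR's quasi-likelihood test with Benjamini-Hochberg adjustment over all genes, none of the 9 was called at 0.05 in p45-deficient against control cells (16.0% of genes were), in Tcf1-deficient against control cells (0% were) or in Tcf1-deficient against p45-deficient cells (10.4% were). In the same order, 0, 3 and 1 of the 9 had an unadjusted p under 0.05, and DESeq2 called none in any of the 3. Without Tcf1-deficient replicate 2, which leaves replicate 1 alone for its genotype, 4 of the 9 were called against control, where 6.59% of genes were, and 4 against p45-deficient cells, where 25.3% were. There 1 of the 9, Ms4a4b, was also called in p45-deficient against control cells, where 28.9% of genes were. The lone library was assumed to vary like the other groups. Without Tcf1-deficient replicate 1, edgeR called none of the 9 in p45-deficient against control cells (28.8% of genes), Tcf1-deficient against control cells (0.12%) or Tcf1-deficient against p45-deficient cells (10.2%), with an unadjusted p under 0.05 for 2, 4 and 2 of them. Having been picked with these levels known, the 9 genes gain no support from any of these counts.

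Profiles over the 6 libraries were compared by the root-mean-square difference of log2 CPM, each gene centred on its own mean, among genes with a mean of at least 5 CPM. The closest gene to Cd8a was Cd8b1, and the reverse, with a difference of 0.215. Next to Cd4 lay Sdc3 (0.198), Cd44 (0.199) and Nav2 (0.212). Cd44, the adhesion receptor whose low surface level was part of the sort, was at 4.74 and 5.07 CPM in p45-deficient, 41.0 and 4.70 CPM in Tcf1-deficient and 5.37 and 7.94 CPM in control libraries. It therefore shared with Cd4 a single high value, in Tcf1-deficient replicate 1.

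S1pr1 lay closest to Cxcr3 (0.163), a chemokine receptor gene of effector and memory T cells, followed by the chemokine gene Ccl5 (0.180) and Slfn1 (0.183). Cxcr3 was at 2.98 and 3.26 CPM in p45-deficient, 28.6 and 2.54 CPM in Tcf1-deficient and 0.919 and 2.67 CPM in control libraries. Next to Ms4a4b were the interleukin-18 receptor gene Il18r1 (0.156), Tnfrsf4 (0.169), which encodes OX40, and S100a6 (0.172). Foxp3 had no gene as close, with Bcl3 at 0.396, Ly6a at 0.402 and Iigp1 at 0.422. These nearest genes, like S1pr1, Ms4a4b and Foxp3 themselves, were highest in Tcf1-deficient replicate 1.

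Samhd1 had the closest match of all, Gimap8 (0.090), a GTPase gene of lymphocytes, followed by the interferon-induced gene Ifit1 (0.119) and Gimap7 (0.143). Gimap8 was at 51.4 and 47.3 CPM in p45-deficient, 164 and 32.8 CPM in Tcf1-deficient and 19.97 and 47.1 CPM in control libraries. Klf2 lay near Evl (0.317), Sgk1 (0.318) and Lars2 (0.378). Ctla4 lay near Dnajb4 (0.295), Tnfsf11 (0.307), the gene of RANKL, and Id2 (0.336), an inhibitor of E proteins. Id2 was at 36.1 and 31.1 CPM in p45-deficient, 52.5 and 32.8 CPM in Tcf1-deficient and 9.86 and 38.4 CPM in control libraries, with control replicate 1 the lowest, as for Ctla4. Next to both CD8 genes lay Akap12, at 0.314 from Cd8a and 0.359 from Cd8b1.

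Other genes of the same functions were taken from 5 lists, with 113 different genes in the files and 110 tested. The lists hold regulators of the coreceptor genes, egress and homing genes, regulatory T cell genes, mature T cell genes, and enzymes of the nucleotide pool in which Samhd1 acts. The adjusted p-values that follow are edgeR's, over all 12939 genes. In p45-deficient against control cells 14 of the 110 rose and 4 fell, against 8.47% and 7.55% of all genes. In Tcf1-deficient against control cells none was called by edgeR, as for all genes; 23 had an unadjusted p under 0.05, and DESeq2 called 5. In Tcf1-deficient against p45-deficient cells 4 rose and 7 fell, where 5.05% and 5.36% of all genes did.

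The median log2 fold change in p45-deficient against control cells was −0.06 for coreceptor regulators, −0.08 for egress and homing, 0.42 for regulatory T cell, 0.13 for mature T cell and 0.41 for nucleotide pool genes, beside 0.046 for all genes. In Tcf1-deficient against control cells the medians were 0.05, 0.26, 1.26, 0.95 and 0.05 in the same order, beside 0.007 for all genes. In Tcf1-deficient against p45-deficient cells they were 0.26, 0.33, 0.96, 0.69 and −0.46, beside −0.013. The median over all 110 genes in Tcf1-deficient against control cells was 0.39, and 0.09 without Tcf1-deficient replicate 1. For 4 of the 5 lists, the genes with the smallest p in that comparison did not pass edgeR's test: Lef1 (log2 fold change 0.44, SE 0.10, adjusted p = 0.419), Itgae (1.85, SE 0.33, adjusted p = 0.286), Cd27 (0.42, SE 0.13, adjusted p = 0.603) and Dctd (−0.71, SE 0.26, adjusted p = 0.613). Itgae, an integrin gene, was at 65.8 and 39.4 CPM in p45-deficient, 62.0 and 35.7 CPM in Tcf1-deficient and 13.5 and 13.5 CPM in control libraries, so all 4 mutant libraries were above both controls.

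**Figure D3:**
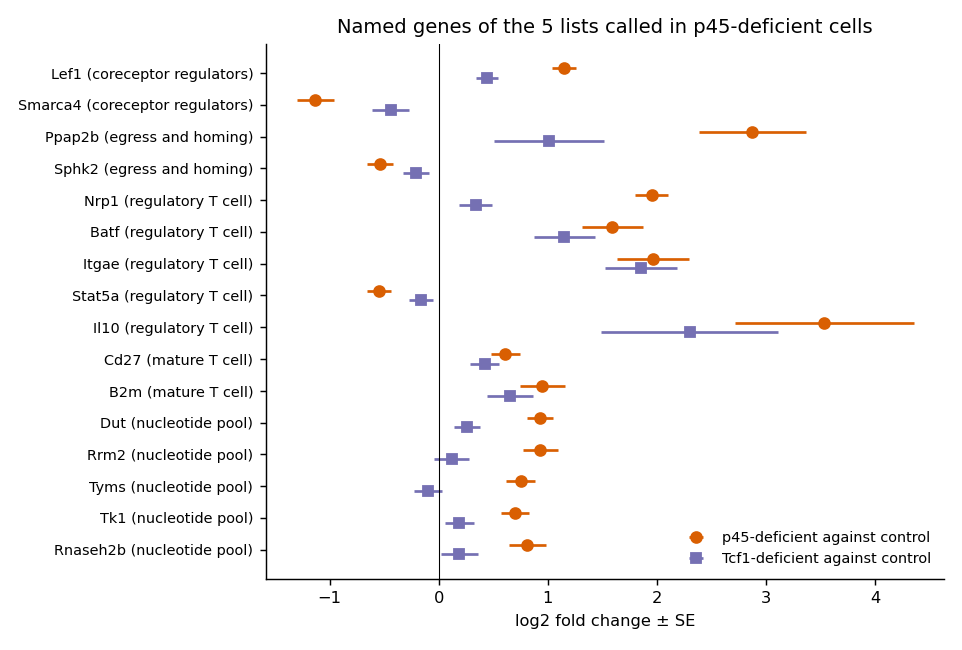
Log2 fold changes (bars are SE) of the genes of the 5 lists named as called in p45-deficient against control cells (orange circles), with the same genes in Tcf1-deficient against control cells (violet squares), where none was called. Nrp1 stands at 1.95 in the first comparison.

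Of 20 coreceptor regulators 1 rose and 1 fell in p45-deficient against control cells. Lef1, a TCF family member that shares functions with Tcf1 in thymocytes, rose 2.22-fold, to 969 and 1006 CPM in p45-deficient cells, against 460 and 428 CPM in control cells (log2 fold change 1.15, SE 0.11, edgeR adjusted p = 0.0021). Smarca4, the ATPase of the BAF chromatin remodelling complex, fell to 567 and 598 CPM in p45-deficient cells, against 1427 and 1129 CPM in control cells (log2 fold change −1.13, SE 0.17, edgeR adjusted p = 0.00816). Both also differed in Tcf1-deficient against p45-deficient cells, Lef1 by a log2 fold change of −0.71 (SE 0.11, edgeR adjusted p = 0.0124) and Smarca4 by 0.70 (SE 0.17, edgeR adjusted p = 0.0428). Smarca4 kept its call against control in 3 of 6 fits that left out 1 library, and Lef1 in all 6. Between the mutants Lef1 kept its call in 4 and Smarca4 in 2 of the 6, and with the replicate block Smarca4 lost it (edgeR adjusted p = 0.0633). Zbtb7b, which encodes the CD4-lineage factor ThPOK, was not called, and was at 17.0 and 17.3 CPM in p45-deficient, 91.7 and 14.4 CPM in Tcf1-deficient and 10.4 and 23.3 CPM in control libraries. It was the 1 regulator of 20 that Tcf1-deficient replicate 1 held at least 2-fold above every other library, the pattern of Cd4. Runx3, the CD8-lineage factor gene, ran from 64.3 to 93.3 CPM over all 6 libraries.

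Among 21 tested egress and homing genes, 1 rose and 1 fell in p45-deficient against control cells. Ppap2b, which encodes a phosphatase that breaks down lipid phosphates such as sphingosine-1-phosphate, rose to 4.26 and 3.21 CPM in p45-deficient cells, against 0.435 and 0.573 CPM in control cells (log2 fold change 2.87, SE 0.49, edgeR adjusted p = 0.0122). It was lower in Tcf1-deficient cells, at 0.835 and 1.21 CPM, than in p45-deficient cells (log2 fold change −1.87, SE 0.47, edgeR adjusted p = 0.0473). Sphk2, a kinase that makes sphingosine-1-phosphate, fell with a log2 fold change of −0.54 (SE 0.12, edgeR adjusted p = 0.0275). Each of these 2 calls against control held in 2 of 6 fits that left out 1 library. The Ppap2b call between the mutants held in 1 of 6, and was lost with RLE, upper-quartile or library-total scaling (edgeR adjusted p = 0.0522, 0.0524 and 0.0545) and with the replicate block (edgeR adjusted p = 0.0752).

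In all, 4 egress and homing genes shared the pattern of S1pr1, with Tcf1-deficient replicate 1 at least 2-fold above each other library: S1pr4, Ccr7, Itgb7 and Foxo1. Ccr7, the homing receptor for lymph nodes, was at 18.2 and 19.96 CPM in p45-deficient, 123.4 and 12.4 CPM in Tcf1-deficient and 8.94 and 20.9 CPM in control libraries. Cd69, whose product pulls S1PR1 from the surface, was at 12.5 and 10.005 CPM in p45-deficient, 68.9 and 91.4 CPM in Tcf1-deficient and 4.98 and 125.5 CPM in control libraries, so its controls were further apart than those of Ctla4.

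In the regulatory T cell list 4 of 27 tested genes rose and 1 fell in p45-deficient against control cells. Nrp1, which encodes neuropilin-1, rose 3.87-fold, to 278 and 284 CPM in p45-deficient cells, against 78.0 and 67.2 CPM in control cells (log2 fold change 1.95, SE 0.15, edgeR adjusted p = 0.00158). It kept this call in all 6 fits that left out 1 library, and in Tcf1-deficient cells, at 81.4 and 102 CPM, it was lower than in p45-deficient cells (log2 fold change −1.61, SE 0.15, edgeR adjusted p = 0.00335). Batf rose 3.001-fold, Itgae 3.89-fold and Stat5a fell 1.46-fold. Il10 rose 11.5-fold, to only 6.51 and 2.63 CPM in p45-deficient cells against 0.193 and 0.573 CPM in control cells. Batf, Il10 and Stat5a kept their calls in 2 and Itgae in 3 of the 6 fits that left out 1 library. Genes of the list that were not called also differed, in both directions. Gpr83 was at 47.5 and 54.4 CPM in p45-deficient, 73.0 and 5.08 CPM in Tcf1-deficient and 2.61 and 4.92 CPM in control libraries. Its log2 fold change in p45-deficient against control cells was 3.74 (SE 1.3), that of Folr4 2.38 (SE 1.19) and that of Entpd1 −1.58 (SE 0.61). Foxp3 itself was at 1.88 ± 0.622 CPM in p45-deficient and 1.73 ± 0.256 CPM in control cells (SD, n = 2 each).

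Entpd1, which encodes the ectonucleotidase CD39, was at 1.07 and 1.01 CPM in p45-deficient, 11.1 and 3.08 CPM in Tcf1-deficient and 3.53 and 2.71 CPM in control libraries. It was higher in Tcf1-deficient than in p45-deficient cells (log2 fold change 2.76, SE 0.62, edgeR adjusted p = 0.0374), a call that held in 1 of 6 fits that left out 1 library. Tcf1-deficient replicate 2 lay between the 2 controls, and Tcf1-deficient against control cells was not called (log2 fold change 1.18, SE 0.58, edgeR adjusted p = 0.654). In Tcf1-deficient replicate 1, 13 of the 27 regulatory T cell genes were at least 2-fold above every other library. Icos, a costimulatory receptor gene, was at 13.0 and 9.62 CPM in p45-deficient, 79.6 and 8.61 CPM in Tcf1-deficient and 5.46 and 12.2 CPM in control libraries. Tigit was at 2.76 and 2.78 CPM, 22.5 and 1.41 CPM, and 0.919 and 1.64 CPM in that order. Not every gene of the list did so: Ikzf2, which encodes Helios, was at 212 and 187 CPM in p45-deficient, 207 and 236 CPM in Tcf1-deficient and 155 and 167 CPM in control libraries. Il2ra, the gene of CD25 on which the cells were sorted, was lowest in Tcf1-deficient replicate 1, at 922.7 CPM. It was at 1991 CPM in replicate 2 of that genotype, 1561 and 1348 CPM in p45-deficient and 969 and 1197 CPM in control libraries.

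In p45-deficient against control cells 2 of the 27 tested mature T cell genes rose and none fell. Cd27, a costimulatory receptor gene, rose 1.53-fold and B2m, the light chain gene of MHC class I, 1.93-fold, to 1313 and 999.8 CPM in p45-deficient cells against 494 and 705 CPM in control cells (log2 fold change 0.95, SE 0.21, edgeR adjusted p = 0.0267). In Tcf1-deficient against p45-deficient cells Fam65b rose 2.10-fold (edgeR adjusted p = 0.032) and Cd96 1.78-fold (edgeR adjusted p = 0.0326). Cd27 and Fam65b held in 2, B2m in 3 and Cd96 in 4 of 6 fits that left out 1 library. In Tcf1-deficient replicate 1, 11 of the 27 were at least 2-fold above every other library. The most extreme of them was Slfn1, at 6.80 and 6.37 CPM in p45-deficient, 72.7 and 5.45 CPM in Tcf1-deficient and 2.42 and 7.10 CPM in control libraries. Il7r, the interleukin-7 receptor gene, was not among them, with 69.9 to 95.9 CPM in all 6 libraries.

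Of 15 nucleotide pool genes 6 rose and 1 fell in p45-deficient against control cells, and 4 fell in Tcf1-deficient against p45-deficient cells. Dut, which removes dUTP, rose 1.90-fold (log2 fold change 0.93, SE 0.12, edgeR adjusted p = 0.00518), and Rrm2, the small subunit gene of ribonucleotide reductase, rose 1.90-fold too (edgeR adjusted p = 0.0129). Tyms rose 1.68-fold, Tk1 1.62-fold and Rnaseh2b 1.76-fold. Rrm1 also rose, and the deaminase gene Dctd fell. Dut kept its call in 5 of 6 fits that left out 1 library, and Rrm2, Tyms, Tk1 and Rnaseh2b each in 2. In Tcf1-deficient against p45-deficient cells, Tyms, Dut, Rrm2 and Rrm1 fell, with log2 fold changes of −0.85, −0.67, −0.81 and −0.73. There Tyms and Dut kept their calls in 4 of the 6 fits, Rrm2 in 2 and Rrm1 in 1, and Rrm1 lost its call with RLE, upper-quartile or library-total scaling (edgeR adjusted p = 0.0542, 0.0531 and 0.059). None of the 15 was 2-fold above every other library in Tcf1-deficient replicate 1, unlike Samhd1.

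**Figure D4:**
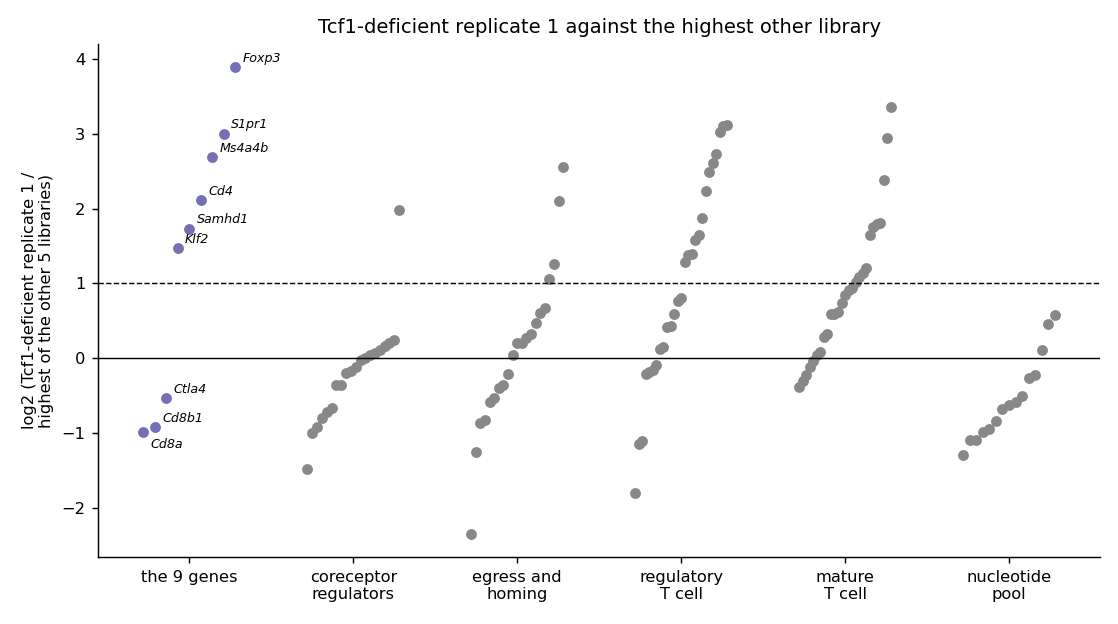
Log2 ratio of the CPM in Tcf1-deficient replicate 1 to the highest CPM among the other 5 libraries, for the 9 genes and for each tested gene of the 5 lists; the solid line is equality and the dashed line 2-fold. Above the dashed line lie 6 of the 9 genes, 13 regulatory T cell genes and 11 mature T cell genes, but no nucleotide pool gene.

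Over the 5 lists together, 29 of 110 genes, or 26.4%, were at least 2-fold above each other library in Tcf1-deficient replicate 1, against 3.49% of all genes tested. Since the lists were chosen with earlier results of these data known, nothing is read from this share. Call counts across genotypes moved when a library was left out, for the lists and for all genes alike. In p45-deficient against control cells the 18 list calls, of 2073 over all genes, became 3 of 258 and 3 of 387 without p45-deficient replicate 1 or 2, and 6 of 450 and 6 of 535 without control replicate 1 or 2. They became 40 of 3857 without Tcf1-deficient replicate 1 and 38 of 3923 without replicate 2. In Tcf1-deficient against control cells 44 list genes of 894 genes in all were called without Tcf1-deficient replicate 2, with replicate 1 alone standing for its genotype. Without Tcf1-deficient replicate 1 no list gene and 16 genes in all were called, and none of either without any other single library.

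Markers of other cells moved with these values in part. The 8 dendritic cell and MHC class II markers summed to 27.0 and 26.1 CPM in p45-deficient, 122.7 and 18.6 CPM in Tcf1-deficient and 123.7 and 51.3 CPM in control libraries, so the sum was as high in control replicate 1, where Foxp3 and S1pr1 were low. Cd74 led it, at 67.5 CPM in Tcf1-deficient replicate 1 and 48.9 CPM in control replicate 1, while Siglech was at 0.132 and 0.193 CPM in those libraries. The 8 natural killer and innate lymphoid markers summed to 151.5 and 155.3 CPM, 204.1 and 188.6 CPM, and 156.6 and 153.2 CPM in p45-deficient, Tcf1-deficient and control libraries, and the defining receptor gene Ncr1 had no read in either mutant genotype. Gata3, which DN3 thymocytes also express, made up 87.6% to 97.3% of that sum. The other 7 markers summed to 6.58 and 7.08 CPM in p45-deficient, 25.4 and 7.41 CPM in Tcf1-deficient and 4.16 and 6.34 CPM in control libraries, and 6 of them, all but Ncr1, were highest in Tcf1-deficient replicate 1, as were 6 of the 9 genes. Eomes was at 4.57 CPM and Tbx21 at 6.51 CPM in that library, against at most 0.583 and 2.87 CPM in the others. The double-positive thymocyte markers summed to 1165 and 1174 CPM in p45-deficient, 790.5 and 1115 CPM in Tcf1-deficient and 1151 and 1072 CPM in control libraries, lowest where Cd4 was highest. B cell markers summed to 14.1 to 36.8 CPM, with Pax5 without a read in both mutant genotypes, and myeloid markers to 6.47 to 11.8 CPM. Gamma-delta T cell markers summed to 705.4 and 626.6 CPM in p45-deficient, 461 and 538.4 CPM in Tcf1-deficient and 369 and 335.7 CPM in control libraries. Cd163l1 made up 15.8% to 54.3% of that sum. The other 7 summed to 322.2 and 377.3 CPM, 350.5 and 424.9 CPM, and 300.5 and 282.6 CPM in the same order of groups. Neither sum had the order of Cd4 or Foxp3, but 1 of the 7, Maf, was highest in Tcf1-deficient replicate 1, at 51.2 CPM. Erythroid markers stayed at or below 2.51 CPM in sum, with Hba-a1 and Hbb-b1 at 0 in all libraries, and thymic stroma markers summed to 162.4 to 216 CPM, most of it Epcam and Pecam1. The part of any of these cells in the levels of the 9 genes was not tested.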

How the data were processed

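RNA from 6 libraries of sorted mouse DN3 thymocytes, 2 per genotype, was analysed. Raw read counts for each gene symbol were deposited by the authors, 1 file a library; per the submitters' processing notes, TopHat2 (version not given), featureCounts 1.5.0-p3, DESeq2 3.4 and build mm9 were used, with no role or order stated. Neither annotation nor strand setting was given in the sources used here, and overlapping, antisense and near-identical genes may share reads.

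Samples were grouped by their titles. Counts were filtered with filterByExpr, scaled by TMM and tested in edgeR 4.0.16 (R 4.3.3) with 1 mean per genotype over all 6 libraries (3 residual degrees of freedom, robust quasi-likelihood F test, two-sided, Benjamini-Hochberg, threshold 0.05); SEs come from the F statistic. CPM uses TMM-scaled library sizes, and log2 CPM a prior count of 2. The test was checked on simulated data in which each gene had the same spread in every group. Unequal spread between groups was therefore not covered. DESeq2 1.42.0, other scalings, no filter, a replicate block and leaving out each library were the alternatives.

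The 9 genes and all lists were chosen with earlier results of these data known. From each list and comparison up to 5 called genes with the smallest p were to be named, or 1 by value where none was called (for 1 list that gene is not reported here), and for each of the 9 genes the 3 with the closest profile. Zbtb7b, Runx3, Ccr7, Cd69, Gpr83, Folr4, Icos, Tigit, Ikzf2, Il2ra, Slfn1, Il7r and the genes said to stand 2-fold above in Tcf1-deficient replicate 1 were chosen after their values were seen.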

Additional observations from a re-analysis of the deposited data

How the results depend on the processing

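Replicate numbers in the titles showed no pairing over all 12939 genes, and the labels name no shared batch. Differences between replicates 1 and 2 correlated by −0.029, −0.014 and −0.050 between pairs of genotypes. A pairing that touches few genes would not show there. Of the 9 genes, only Cd8a and Cd8b1 were higher in replicate 1 of every genotype. In p45-deficient against control, the replicate block took the SE of Cd8a from 0.66 to 0.34 and of Cd8b1 from 0.75 to 0.49. That of Cd4 went from 0.93 to 1.05. With the replicate block, edgeR called 1613 genes in p45-deficient against control cells, 0 in Tcf1-deficient against control and 920 in Tcf1-deficient against p45-deficient, where the fit without it called 2073, 0 and 1348; genes of the 5 lists numbered 19, 0 and 9, against 18, 0 and 11. DESeq2 gave 145 genes in Tcf1-deficient against control and 2551 in Tcf1-deficient against p45-deficient, and 29, 5 and 30 genes of the lists in the 3 comparisons. Without the low-count filter, 33 genes were called in Tcf1-deficient against control, and 17 genes of the lists in Tcf1-deficient against p45-deficient. Leaving out 1 library gave 258 to 3923, 0 to 894 and 105 to 3437 genes, and 3 to 40, 0 to 44 and 1 to 57 genes of the lists. The fits that left out 1 library also held fewer libraries. All genotypes shared one estimate of the spread, so a library outside a comparison also entered its test. Without Tcf1-deficient replicate 1 or 2, calls in p45-deficient against control rose from 2073 to 3857 and 3923. The cause of these moves was not tested. Library totals in place of TMM moved the all-gene median in p45-deficient against control (log2) from 0.046 to −0.060 and the split of calls from 1096 higher and 977 lower to 721 and 1281. Fitted fold changes of the 9 genes moved by less than their SE in all 162 refits with another tool, scaling, filter or block, and by more in 22 of 162 that left out a library. Leaving out a library changed the sign of Cd8b1 in Tcf1-deficient against control (−1.70 to 0.40), of S1pr1 in Tcf1-deficient against p45-deficient (−0.52 to 3.11), of Cd4 and Samhd1 in both Tcf1-deficient comparisons, of Ctla4 in all 3 and of Foxp3 in p45-deficient against control, where the replicate block also did (−0.11, beside 0.12). With 30 to 63 counts of Foxp3 in 5 libraries, depth limits any difference between them.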
